A study of Mus musculus with 16 samples.

Results

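The genes described here bear the gene names of cytosolic ribosomal proteins. They were taken by name from a table of read counts for 24454 genes of mouse muscle. A row was a member if its symbol began with Rpl or Rps and a digit, or was Rplp0, Rplp1, Rplp2 or Rpsa, if it was no pseudogene (-ps) symbol and no S6 kinase (Rps6k) symbol, and if its mean count over the 16 samples was at least 50. The name rule gave 90 symbols, of which 87 reached the minimum. These were 52 large-subunit (Rpl) and 35 small-subunit (Rps) symbols. Rps19bp1 met the rule by its symbol but encodes a protein that binds RPS19 and is no part of the ribosome. Without it 86 members were left, among them Rps4l, annotated as a transcribed pseudogene, and the copies Rps27rt, Rpl37rt and Rpl32l. Just outside the minimum lay Rpl39l with a mean of 5.06 counts, Rps23rg1 with 4.06 and Rpl10l with 0, and just inside lay Rpl28 with 51.7, Rps4l with 59.3 and Rpl38 with 81.1.

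Gastrocnemius muscle of 16 mice was sequenced, each mouse giving 1 library of mRNA. HSALR mice (5 with the treatment label CTRL, 5 with AICAR) carry a human skeletal actin (ACTA1) transgene with a long CTG repeat that is expressed in skeletal muscle, and are a model of myotonic dystrophy type 1. According to the methods they are homozygous mice of the line LR20b, and the controls are FVB/N mice, the background strain (3 with CTRL, 3 with AICAR). AICAR, an activator of AMP-activated protein kinase (AMPK), was given at 500 mg/kg for 7 days according to the labels. The labels attach this protocol to every sample, those with the treatment CTRL included, and do not say what the CTRL mice received, so the groups rest on the treatment label alone and CTRL cannot be taken as known to be free of AICAR. The age of the sequenced mice is not stated, and the study's other work on HSALR gastrocnemius used mice 3 months old and older. HSALR is 1 transgenic line, so the repeat and the site of integration cannot be told apart, and the FVB/N mice are not named as littermates.

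Between 64890014 and 81987726 reads per library were counted on genes, and the 10 most abundant genes took 19.4% to 24.1% of them. The muscle fibre markers Ckm, Acta1, Mb, Tnnt3, Myh4 and Pvalb summed to between 100163 and 147918 normalized CPM in every mouse, with overlap between the groups. Acta1, the mouse relative of the transgene, was at 24411 to 31273 in FVB/N and 32834 to 37705 in HSALR mice, and Mb (myoglobin) at 2348 to 4980 and 6702 to 7752, both without overlap. Of the 6 markers, 2 were called higher in HSALR mice with CTRL, and 2 higher and 1 lower after AICAR. The unit of all levels below is normalized CPM, counts scaled to a common library total, with library sizes adjusted by TMM (trimmed mean of M-values). Differences are log2 fold changes with their standard errors (SE) from edgeR's quasi-likelihood test on all 16 libraries, with p-values adjusted over the 15487 genes tested by the Benjamini-Hochberg method. Members were called higher or lower at an adjusted p under 0.05, and all 87 members passed the filter on low counts. Each member value rests on 51.7 to 52708 reads per library on average.

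The ribosome is built from a small subunit, which reads the mRNA, and a large subunit, which joins the amino acids. Each subunit needs ribosomal RNA and a copy of nearly every protein, so the genes for these proteins are usually expressed together. Most of their mRNAs start with a C followed by a run of pyrimidines, the 5′ terminal oligopyrimidine (TOP) tract, through which the kinase mTOR controls their translation, and AMPK is known as an inhibitor of mTOR signalling. In muscle, ribosome number is tied to growth, and muscle also expresses some ribosomal proteins of its own, such as Rpl3l.

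The TOP tract can be seen at the annotated starts of members from both subunits. The following windows run from 10 bases before to 20 bases from the annotated transcription start on (RefSeq, GRCm38.p6), 5′ to 3′ on the strand of the gene, with the run of C and T that begins at the start in capitals. They are shown because they carry the feature that this class of mRNA shares, for members of different behaviour in the comparisons below. In the last, the muscle-specific Rpl3l, no such run begins at the annotated start.
Rps6 (chr4:86857348-86857377, minus strand): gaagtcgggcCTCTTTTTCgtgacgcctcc
Rplp2 (chr7:141447641-141447670, plus strand): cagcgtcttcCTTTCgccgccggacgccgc
Rps21 (chr2:180257369-180257398, plus strand): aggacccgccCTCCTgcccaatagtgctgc
Rpl14 (chr9:120571507-120571536, plus strand): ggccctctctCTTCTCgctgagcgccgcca
Rpl15 (chr14:18270967-18270996, minus strand): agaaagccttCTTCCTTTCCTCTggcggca
Rpl28 (chr7:4792955-4792984, plus strand): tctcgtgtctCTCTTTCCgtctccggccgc
Rps27 (chr3:90213629-90213658, minus strand): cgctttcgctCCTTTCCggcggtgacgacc
Rps27rt (chr9:114982720-114982749, minus strand): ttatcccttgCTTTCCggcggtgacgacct
Rpl3l (chr17:24727816-24727845, plus strand): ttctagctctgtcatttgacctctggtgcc
The windows of Rps27 and of Rps27rt, a copy of it in the genome, have nearly the same letters after the tract, and their counts were nearly the same too (see the last results on levels). A start sequence was found for 66 of the 87 members. A C at the annotated start with at least 4 further pyrimidines stood in 15 of these 66 (22.7%), against 2.94% of 12037 other genes tested. The letters CTTTC within 20 bases on either side of the start stood in 19 members (28.8%) against 5.9% of the other genes, and many of these overlap the tract just described. The letters CCGGAAG, on either strand in the 300 bases around the start, stood in 25 members (37.9%) against 17.6%. Annotated starts can be off by some bases, so members without the tract in this window are not shown to lack it.

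Ribosomal protein transcripts were higher in HSALR than in FVB/N muscle with CTRL treatment. Over all members the summed level was 7712, 7726 and 7891 normalized CPM in the 3 CTRL-treated FVB/N mice and 8400, 9616, 9214, 9945 and 9680 in the 5 CTRL-treated HSALR mice. After AICAR it was 8650, 8388 and 8162 in FVB/N mice and 9395, 9624, 8947, 9158 and 9399 in HSALR mice. The genotypes did not overlap under either treatment, while the 2 HSALR groups lay over each other. The means were 7776 ± 99.1 (SD, n = 3) for FVB/N with CTRL, 8400 ± 244 (SD, n = 3) for FVB/N with AICAR, 9371 ± 603 (SD, n = 5) for HSALR with CTRL and 9304 ± 259 (SD, n = 5) for HSALR with AICAR. The HSALR to FVB/N ratio of the means was therefore 1.21 with CTRL and 1.11 with AICAR, and AICAR went with a ratio of 1.08 in FVB/N and 0.993 in HSALR mice. The members took between 0.739% and 1.04% of the counts of a library. In bulk muscle, more RNA of a gene per cell and more of the cells that express it cannot be told apart.

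**Figure D1:**
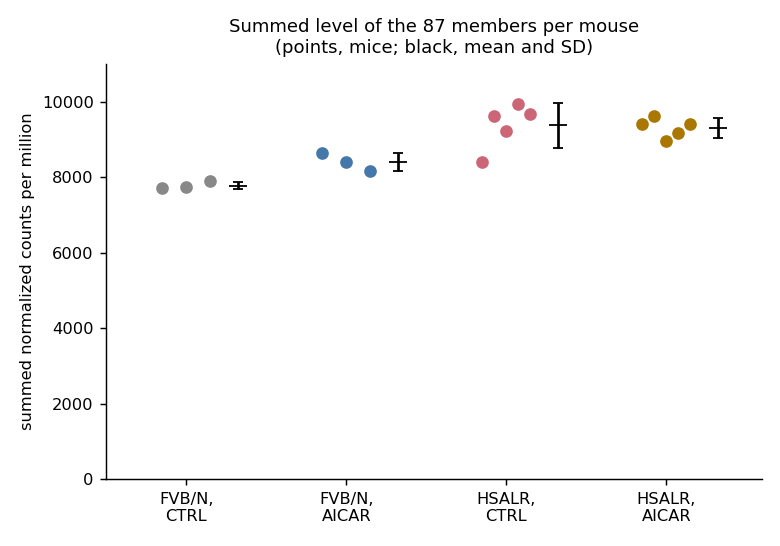
Summed normalized CPM of the 87 members in each mouse (points) by genotype and treatment, with the mean and SD of each group in black. The 5 CTRL-treated HSALR mice sit between 8400 and 9945, above the 3 CTRL-treated FVB/N mice at 7712 to 7891.

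Of the 87 members, 67 were higher, 0 were lower and 20 were not past the threshold in HSALR against FVB/N mice with CTRL treatment, where 26.9% of all genes tested were called (15.4% higher, 11.5% lower). At an unadjusted p under 0.05, 77 members passed, beside 5912 of the 15487 genes. The median log2 fold change of the members was 0.29 (1.22-fold), against 0.01 over all genes. Both subunits took part, with 41 of 52 Rpl members (median 0.29) and 25 of 34 Rps members without Rps19bp1 (median 0.28) higher. The 5 HSALR mice all lay above the 3 FVB/N mice in 67 members (77.0%), which was so for 16.8% of all genes, and all lay below them in 0 members. Without each mouse in turn, 52 to 73 members were called. An offset for gene length, described below, left 36 members higher and 1 lower (13.5% and 10.6% of all genes), with a median of 0.13.

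The strongest rises were found in a few members of both subunits. Rpl10, which joins the large subunit late and completes its tRNA-binding centre, was at 79.4, 80.9 and 88.5 normalized CPM in FVB/N and at 104, 128, 127, 132 and 116 in HSALR mice with CTRL. The groups did not overlap, and its log2 fold change was 0.55 ± 0.0752 (SE; adjusted p = 8.4e-05). Rpl36al, the paralogue of the large-subunit protein Rpl36a, rose by 0.57 ± 0.0957 (adjusted p = 0.00051), from 36.9, 41.6 and 38.4 to 45.5, 62.9, 56.4, 65.6 and 57.9. The lowest HSALR mouse was the same one (S451) for both genes. Rps27a, whose product is ubiquitin fused to a small-subunit protein, was at 42.4, 42.5 and 45.0 in FVB/N and at 60.7, 62.0, 64.4, 65.7 and 62.8 in HSALR mice. The groups did not overlap. It rose by 0.54 ± 0.0568 (adjusted p = 7.4e-06). Rps28, a small-subunit protein, rose by 0.54 ± 0.114 (adjusted p = 0.0025) from a low level of 3.849 ± 0.0494 (SD, n = 3) to 5.601 ± 0.761 (SD, n = 5) normalized CPM. Rpl37rt, a copy of Rpl37, rose by 0.51 ± 0.0684 (adjusted p = 7e-05), and Rpl37 itself by 0.50 ± 0.0693. The largest value of all belonged to Rpl28, a large-subunit protein close to the count minimum, with 0.63 ± 0.233, but it missed the threshold (adjusted p = 0.057). Its levels were 0.413, 0.663 and 0.598 in FVB/N and 0.626, 0.802, 0.682, 1.27 and 0.946 in HSALR mice, with an overlap.

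**Figure D2:**
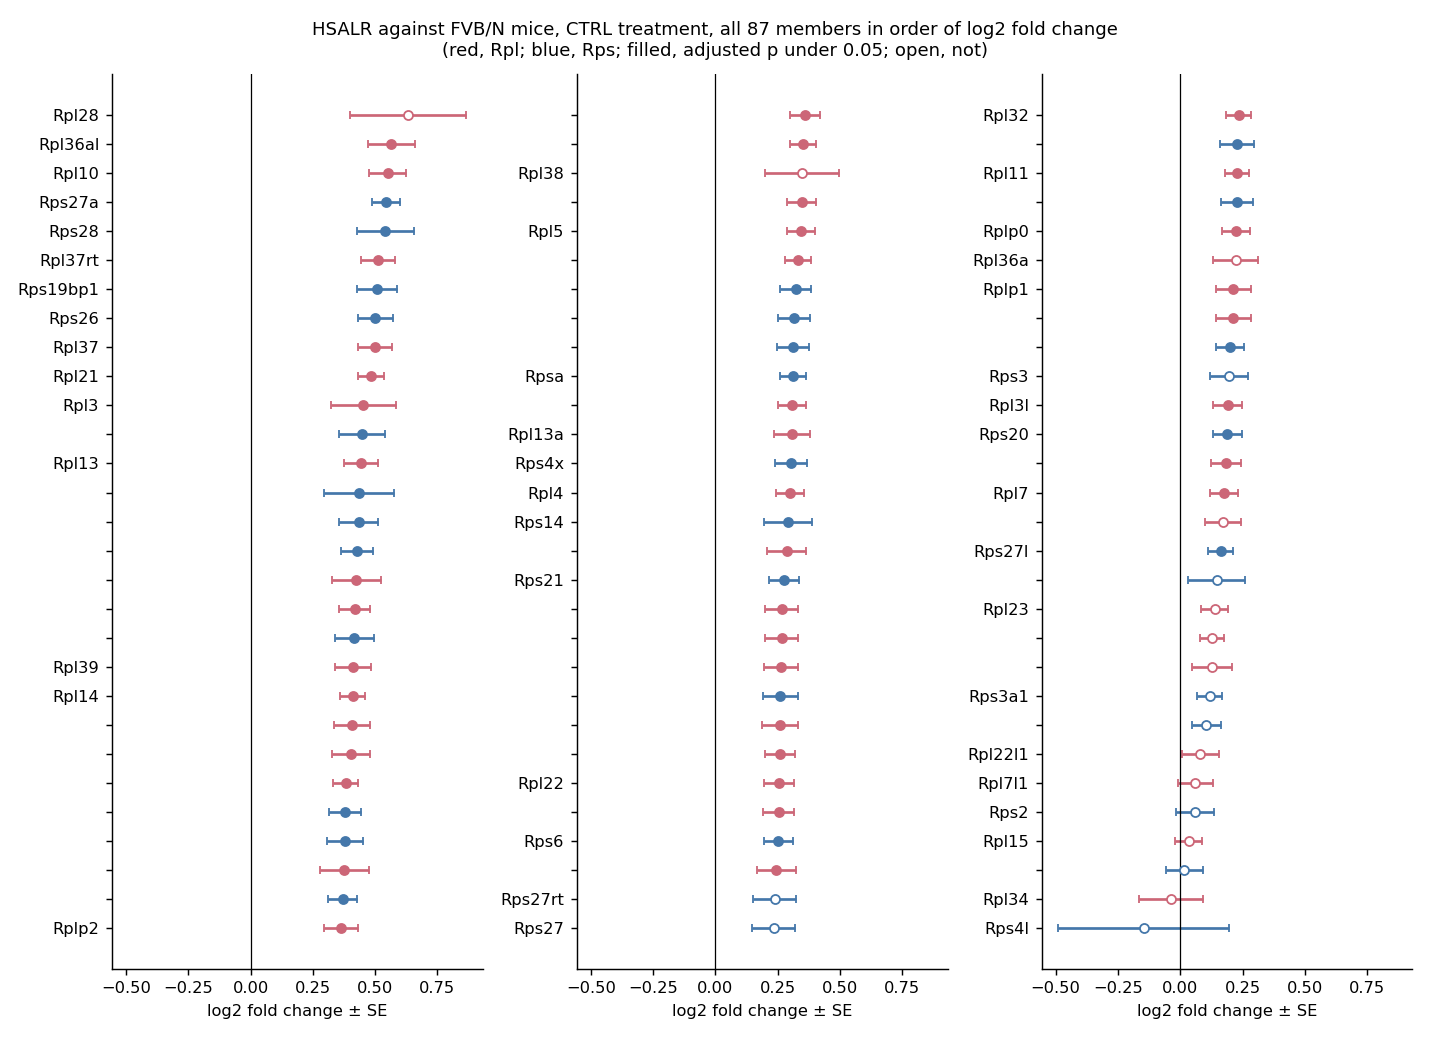
Log2 fold change with its SE of each of the 87 members in HSALR against FVB/N mice with CTRL treatment, in falling order over the 3 panels, with the members described in the text named, Rpl members in red, Rps members in blue and filled points for an adjusted p under 0.05. Positive values were found for 85 of the 87 members, from Rpl28 at 0.63 (open) down to Rpl34 at -0.04 and Rps4l at -0.15.

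Members with known roles were read next. Of the stalk, the protruding part of the large subunit that binds elongation factors, Rplp0 rose by 0.22 ± 0.0554 (adjusted p = 0.0077), Rplp1 by 0.21 ± 0.0687 (adjusted p = 0.031) and Rplp2 by 0.36 ± 0.068 (adjusted p = 0.0011). Rplp0 is used as a reference gene in qPCR. It was at 577, 542 and 599 normalized CPM in FVB/N and at 631, 693, 658, 679 and 679 in HSALR mice with CTRL. Rpsa, a small-subunit protein that is also known as the laminin receptor precursor, rose by 0.31 ± 0.0522 (adjusted p = 0.00049). Rps6, the substrate of the S6 kinases downstream of mTOR, was at 68.7, 69.7 and 74.2 in FVB/N and at 76.4, 85.6, 85.8, 90.2 and 84.0 in HSALR mice. The groups did not overlap, and the difference was 0.25 ± 0.0583 (adjusted p = 0.0048). The partners of 5S rRNA, Rpl5 and Rpl11, which bind the p53 regulator MDM2 when ribosome assembly fails, rose by 0.34 ± 0.0552 (adjusted p = 0.00033) and 0.23 ± 0.0478 (adjusted p = 0.0025). Rpl4, which lines the exit tunnel, rose by 0.30 ± 0.0562 (adjusted p = 0.0011), and Rpl39, another protein of the tunnel, by 0.41 ± 0.0719. In the small subunit, Rps14 rose by 0.29 ± 0.0958 (adjusted p = 0.035). Rps3, at the mRNA entry, had 0.20 ± 0.075 and missed the threshold (adjusted p = 0.066). The HSALR mice ranged from 255 to 338, across the FVB/N values of 260.2, 264 and 278. With the offset for gene length described below, the calls of Rplp0, Rplp1, Rplp2, Rpl11 and Rps14 were lost.

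The members were not raised by an equal factor. When the libraries were scaled to the summed count of 79 members, so that a log2 fold change is relative to the family, 11 members were higher and 10 lower than the family in CTRL-treated HSALR mice. The 79 leave out Rps19bp1 and 7 paralogues (Rpl3l, Rpl22l1, Rpl36al, Rps27l, Rps27rt, Rpl7l1 and Rps4l), but keep the copies Rpl32l and Rpl37rt. Here the libraries are tied to the family, and over all genes 5.49% were called higher and 41.0% lower. Those higher than the family were Rpl10, Rpl36al, Rps27a, Rps28, Rpl37 and Rpl37rt, described above, and Rpl21 (0.21 ± 0.0503), Rps26 (0.23 ± 0.053), Rps19bp1 (0.24, adjusted p = 0.049), Rpl13 and Rpl14. Those lower included Rpl15 (-0.24 ± 0.052, adjusted p = 0.002), Rpl7l1 (-0.21 ± 0.0735) and Rps2 (-0.21 ± 0.0823). Most genes named in this paragraph were chosen after their values were seen. On the TMM scale these 3 lower genes lay near 0, with 0.03 ± 0.0532 for Rpl15 and 0.06 ± 0.0754 for Rps2. Rpl15 and Rps2 encode proteins of the core ribosome, and Rpl15 has the longest TOP tract shown above.

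The same comparison in AICAR-treated mice, which shares no mouse with the first, gave a similar order of the members. Relative to the family, 7 members were higher and 6 lower, where 25.2% of all genes were called (5.13% higher, and 3101 of the 15487 genes lower). Of the 7, 6 were also higher with CTRL (85.7% of the 7 and 54.5% of the 11), namely Rpl10, Rpl21, Rpl36al, Rpl37, Rps19bp1 and Rps27a. The 6 lower ones, among them Rpl15, Rpl22l1, Rpl7l1, Rps2 and Rps3a1, were all among the 10 lower ones with CTRL (60.0% of the 10).

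On the TMM scale, fewer members passed the threshold between the genotypes after AICAR than with CTRL. Of the 87 members, 27 were higher, 1 was lower and 59 were not past the threshold, where 21.8% of all genes were called (12.2% higher, 9.64% lower). The median log2 fold change was 0.14 (1.1-fold), and 47 members passed an unadjusted p of 0.05, beside 5514 of the 15487 genes. All HSALR mice lay above all FVB/N mice in 44 members (50.6%), against 15.0% of all genes, and below them in 4 (4.6%), against 11.6%. The largest rises among called members were in Rpl36al (0.49 ± 0.0954, adjusted p = 0.0021), Rps19bp1 (0.45 ± 0.0803), Rpl21 (0.38 ± 0.0522), Rpl10 (0.36 ± 0.0747) and Rps28 (0.36 ± 0.112). Rpl10 was at 96.0, 96.3 and 99.8 normalized CPM in FVB/N and at 136, 131, 118, 119 and 123 in HSALR mice after AICAR, again without overlap. Rps6, Rpl5 and Rpl11 were at 0.08, 0.08 and 0.03 and were not past the threshold. The lower member was Rpl22l1, with -0.29 ± 0.0739 (adjusted p = 0.011). Without the AICAR-treated FVB/N mouse S448, 18 members were called in place of 28. The offset for gene length described below left 10 higher and 7 lower (10.9% and 9.34% of all genes), with a median of 0.01.

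All 27 members called higher after AICAR were also called with CTRL, which is 40.3% of the 67 called there. Across the 87 genes, which are not independent and share their libraries, the log2 fold changes of the 2 treatments correlated with a Pearson r of 0.827 (Spearman rho 0.8), against 0.249 (rho 0.492) over all genes tested. The sign was the same in 79 of 87 members, and the value was larger with CTRL in 86 of 87. Over all genes tested these counts were 11000 and 7984 of 15487.

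**Figure D3:**
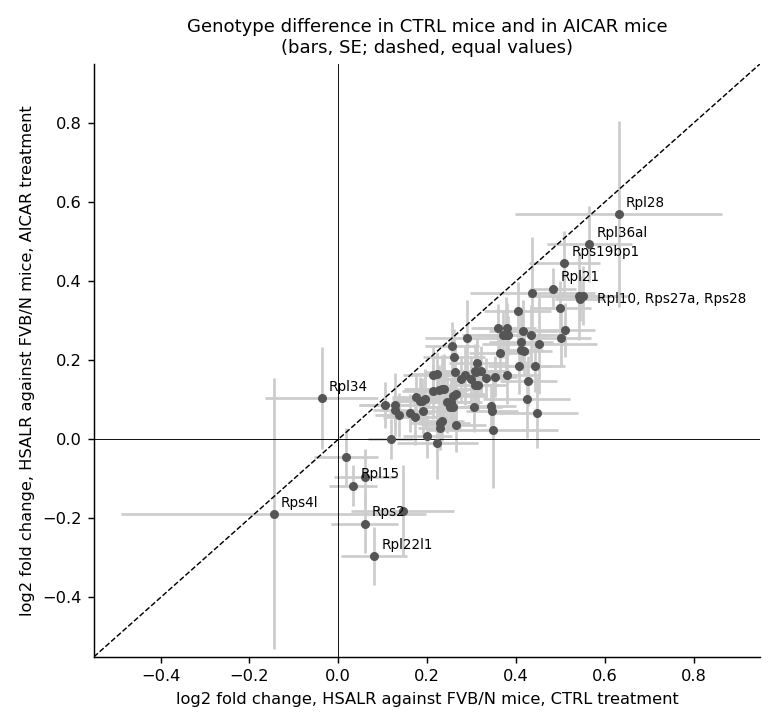
Log2 fold change of each member in HSALR against FVB/N mice after AICAR (vertical) and with CTRL (horizontal), with SEs in grey and the line of equal values dashed. Nearly all points lie under the line, and Rpl36al, Rpl10, Rps27a and Rps28 stand at the upper right in both, while Rpl22l1 is at 0.08 with CTRL and -0.29 after AICAR.

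Gene length moved with the genotype in these libraries, and the members are short. The gene length of the deposited table was 327 to 5134 bases in the members, with a median of 710, and 2883 bases in the median of all genes tested. Across all genes, the log2 fold change between HSALR and FVB/N mice fell with length, with a Spearman rho of -0.26 with CTRL and -0.208 after AICAR, while rho was 0.0391 for AICAR in HSALR and -0.0311 for AICAR in FVB/N mice. Within the 87 members it was -0.104 and -0.00861 for the 2 genotype comparisons. Of the 3230 other genes in the length span that holds the middle of the members, from their 10th percentile up to 1693 bases, 820 were higher and 152 lower with CTRL, with a median of 0.12. In the same span, 55 of 69 members were higher and 0 lower, with a median of 0.29.

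The length relation differed from mouse to mouse as well. In each library, rho between gene length and the deviation of a gene from its mean over the libraries was 0.233, 0.21 and 0.171 in FVB/N mice with CTRL, and 0.101, 0.0629 and 0.272 in FVB/N mice with AICAR. It was 0.0471, -0.102, -0.0459, -0.329 and -0.164 in HSALR mice with CTRL, and -0.159, -0.238, 0.0709, -0.0872 and -0.0953 in HSALR mice with AICAR. Among the CTRL-treated mice of both genotypes together, the summed levels ran in exactly the reverse order of rho. The ends were the FVB/N mouse S445 (7712, rho 0.233) and the HSALR mouse S458 (9945, rho -0.329). In AICAR-treated HSALR mice, the lowest sum (S460) also had the highest rho and the highest sum (S455) the lowest. Only S454 (9395) and S463 (9399) broke the reverse order in that group. In AICAR-treated FVB/N mice the lowest sum (S449) had the highest rho, but the highest sum (S447) did not have the lowest. With the libraries at the ends, S449 and S458, left out together, 61 members were higher with CTRL, where 14.9% of all genes were, and 20 were higher and 1 lower after AICAR, where 10.4% and 7.62% of all genes were.

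With an offset that removes the length curve of each library, the members' median fell toward 0 in both genotype comparisons. With CTRL, 36 members were higher and 1 was lower, with a median of 0.13, where 13.5% of all genes were called higher and 10.6% lower. The 3230 other genes in the span had a median of -0.00128 under the same offset. After AICAR, 10 members were higher and 7 lower, with a median of 0.01, where 20.3% of all genes were called (10.9% higher, 9.34% lower). Rps27a (0.38, adjusted p = 2.7e-05), Rpl10 (0.38, adjusted p = 0.0009), Rpl21 (0.42, adjusted p = 1.4e-05) and Rpl36al (0.34, adjusted p = 0.0087) were among those that stayed higher with CTRL, and all 4 stayed higher after AICAR, where Rps28 lost its call (0.18, adjusted p = 0.17). Rps6 stayed higher with CTRL at 0.15 (adjusted p = 0.047), while the calls were lost for Rplp0 (0.12, adjusted p = 0.099), Rplp1 (-0.01, adjusted p = 0.85), Rplp2 (0.13, adjusted p = 0.055), Rpl11 (0.03, adjusted p = 0.73) and Rps14 (0.09, adjusted p = 0.39). Among the paralogue pairs, the calls of Rpl3 (0.35, adjusted p = 0.058), Rpl3l (0.11, adjusted p = 0.2), Rps27l (-0.04, adjusted p = 0.59) and Rpl7 (0.03, adjusted p = 0.75) were lost too. For AICAR the offset left 4 higher and 8 lower members in HSALR mice (15.0% and 13.2% of all genes) and 6 higher and 0 lower in FVB/N mice (9.34% and 4.92%). What gave the length relation was not tested.

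**Figure D4:**
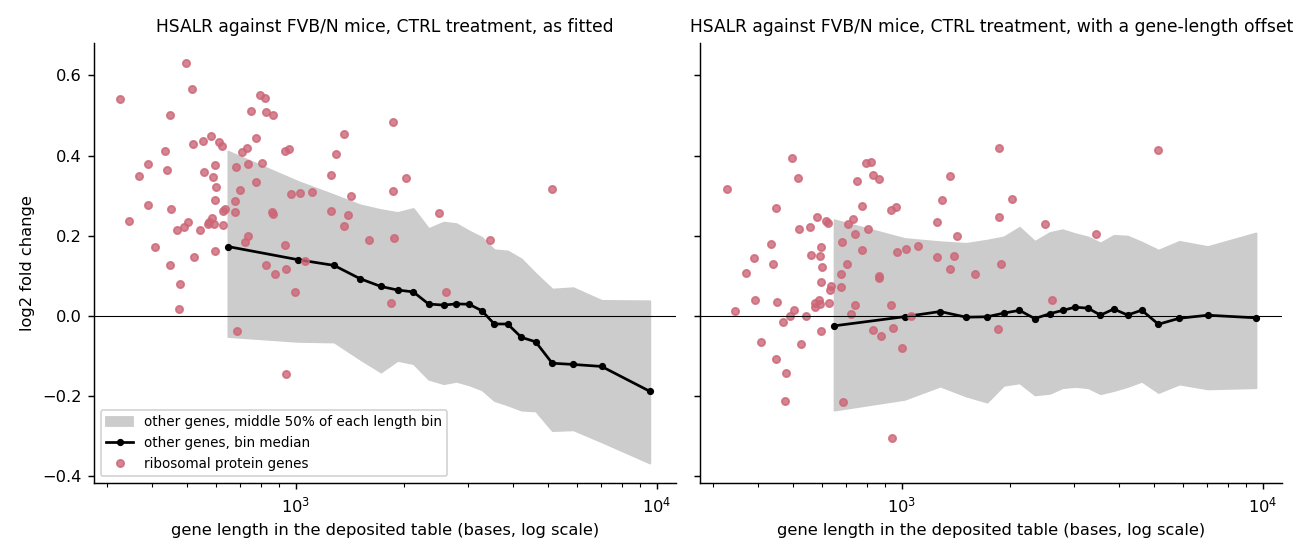
Log2 fold change in HSALR against FVB/N mice with CTRL against gene length (log axis, bases), as fitted (left) and with a length offset per library (right). Red points are the 87 members, the black line is the median and the grey band the middle 50% of the other genes in 20 bins of equal size. On the left the line falls from 0.173 in the shortest bin, and most members lie above it. On the right it stays near 0.

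Few members passed the threshold for AICAR. In HSALR mice 3 members were higher, 7 lower and 77 not past the threshold, where 26.6% of all genes tested were called (13.7% higher, 13.0% lower), with a median log2 fold change of -0.044. That median was -0.0733 without S451, -0.0192 without S458, -0.0266 without S459 and -0.0272 without S460. In FVB/N mice 7 were higher and 0 lower, where 13.2% of all genes were called (8.4% higher, 4.77% lower), with a median of 0.11. In FVB/N mice the share of members called higher was therefore close to that of all genes. At an unadjusted p under 0.05, 18 members passed in HSALR and 22 in FVB/N mice, beside 5887 and 4408 of the 15487 genes. All AICAR-treated FVB/N mice lay above the CTRL-treated ones in 40 members (46.0%), against 18.1% of all genes. In HSALR mice this was so for 1 member (1.15%), against 10.2%.

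Rps20, a small-subunit protein, and Rpl13a, a large-subunit protein that also silences inflammatory mRNAs, were higher with AICAR in both genotypes. Rps20 was at 126, 128 and 132 normalized CPM in FVB/N mice with CTRL and at 166, 158 and 169.8 with AICAR. In HSALR mice it was at 133, 147, 147, 158 and 151 with CTRL and at 178, 184, 164, 167 and 187 with AICAR, so the groups of neither genotype overlapped. The difference was 0.35 ± 0.0665 (adjusted p = 0.0032) in FVB/N and 0.26 ± 0.0515 (adjusted p = 0.0019) in HSALR mice. Rpl13a was at 197, 193 and 196 with CTRL and at 261, 244 and 235 with AICAR in FVB/N mice. In HSALR mice it was at 215, 233, 232, 272 and 258 with CTRL and at 271, 276, 268, 274 and 300.3 with AICAR, where 1 CTRL mouse reached into the AICAR range. The difference was 0.34 ± 0.0783 (adjusted p = 0.011) in FVB/N and 0.20 ± 0.0606 (adjusted p = 0.024) in HSALR mice. Rpl23, a large-subunit protein, was the third member called in both, with 0.22 ± 0.0616 (adjusted p = 0.028) and 0.14 ± 0.0477 (adjusted p = 0.036). Without the CTRL-treated HSALR mouse S453, 4 members were called in HSALR mice in place of 10, and without the AICAR-treated mice S463 and S462 in turn, 5 and 6.

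Of the 87 members, 44 overlap another annotated gene and 30 of them a small nucleolar RNA gene, Rps20, Rpl13a and Rpl23 included. In the RefSeq annotation of GRCm38.p6, Rpl13a (chromosome 7, 45125563 to 45128745) overlaps 4 small nucleolar RNA genes and 1 microRNA gene, Rpl23 overlaps 1 small nucleolar RNA gene, and Rps20 (chromosome 4, 3831584 to 3835655) overlaps 1 small nucleolar RNA gene and the gene Gm32823. The counting used reads that start in exons, and whether it used the strand is not stated.

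Rpl3l, the muscle form of Rpl3, was higher with AICAR in FVB/N mice, from 400.0, 399 and 379 to 473, 457 and 475 normalized CPM (0.25 ± 0.0653, adjusted p = 0.019). In HSALR mice, where it was at 448.2 ± 30.4 (SD, n = 5) with CTRL, its difference was 0.13 ± 0.0505 (adjusted p = 0.063). The other members higher in FVB/N mice were Rplp2 (0.24 ± 0.0752), Rps21 (0.21 ± 0.0647) and Rpl32 (0.19 ± 0.0553). The 7 calls in FVB/N mice fell to 3 without each CTRL-treated mouse (S445, S446, S450), to 2 without S447, to 3 without S448 and to 4 without S449.

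The members lower with AICAR in HSALR mice were Rpl22l1 (-0.25 ± 0.0645, adjusted p = 0.01), Rpl36a (-0.22 ± 0.0783, adjusted p = 0.048), Rpl7l1 (-0.20 ± 0.0613, adjusted p = 0.028), Rpl22 (-0.18 ± 0.0516, adjusted p = 0.019), Rps6 (-0.17 ± 0.0501, adjusted p = 0.021), Rps27a and Rpl14. Rps6 was at 80.2, 77.9, 72.6, 75.2 and 69.6 normalized CPM after AICAR, against 76.4 to 90.2 with CTRL, with an overlap. In FVB/N mice its level was 70.9 ± 2.91 with CTRL and 70.9 ± 1.26 (SD, n = 3 each) with AICAR. Rpl22, a large-subunit protein that binds RNA outside the ribosome too, was at 123, 146, 143, 144 and 152 with CTRL and at 125, 121, 127, 123 and 129.9 with AICAR in HSALR mice. In FVB/N mice it went from 119, 117 and 119.6 to 109.9, 108 and 101 without overlap, but the difference of -0.16 ± 0.0667 missed the threshold (adjusted p = 0.13). Relative to the family total, Rpl22 was lower with AICAR in both genotypes (-0.26 ± 0.0588 in FVB/N and -0.16 ± 0.0455 in HSALR mice), and Rps20 and Rpl13a were higher in both. On that scale 4 members were higher and 3 lower in HSALR mice (12.0% and 9.94% of all genes), and 2 were higher and 1 lower in FVB/N mice (3.51% and 7.96%).

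**Figure D5:**
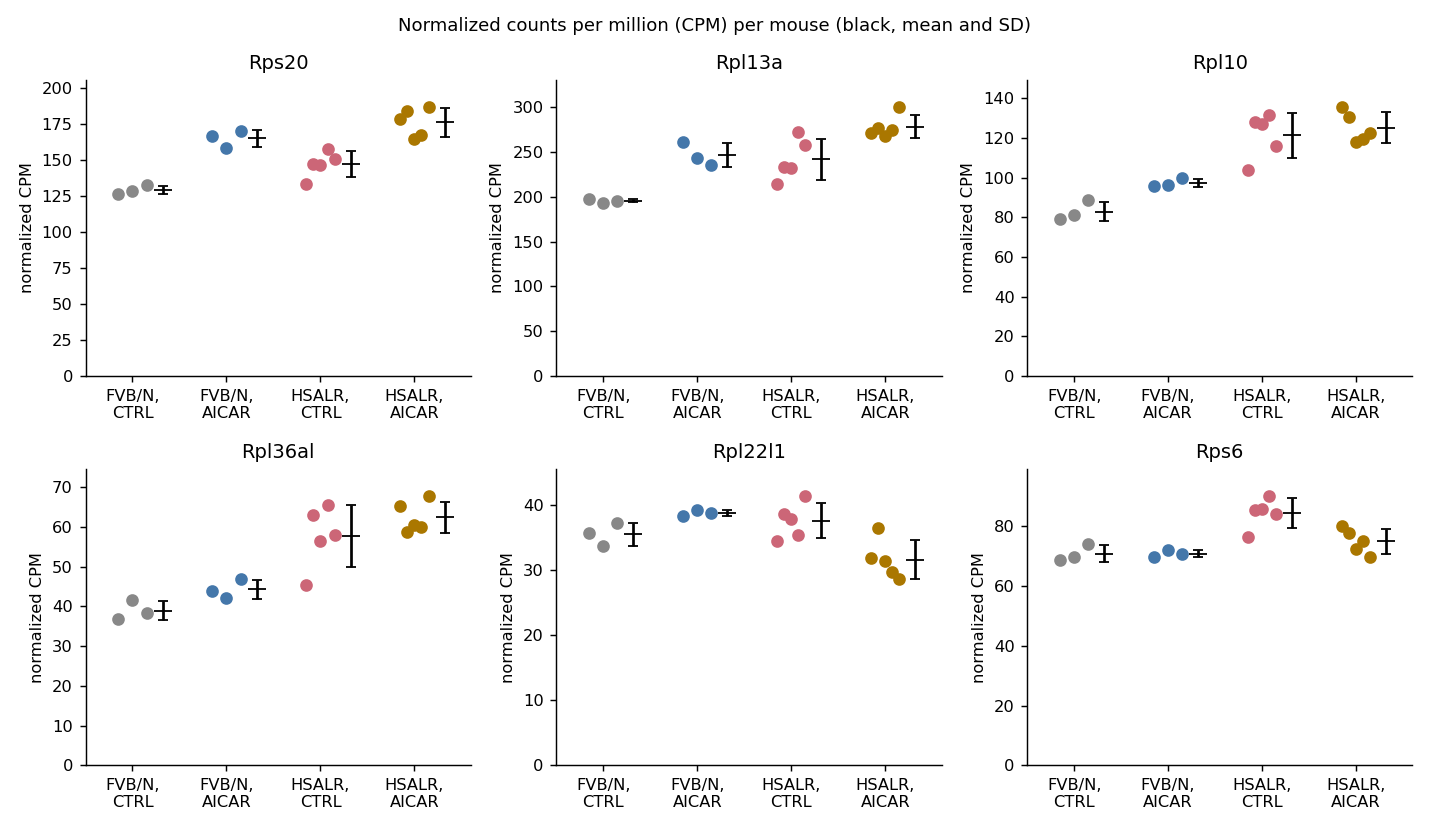
Normalized CPM of 6 members in each mouse (points) by genotype and treatment, with the mean and SD of each group in black. Rps20 and Rpl13a lie higher with AICAR in both genotypes, Rpl10 and Rpl36al lie higher in HSALR mice under both treatments, and Rpl22l1 is lowest in the AICAR-treated HSALR mice, at 28.7 to 36.5.

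No member was called for a difference between the AICAR effects of the 2 genotypes by edgeR's quasi-likelihood test, where 0.691% of all genes were called. With the length offset and with scaling to the family it was 0 members too, beside 0.82% and 0.594% of all genes. At an unadjusted p under 0.05, 22 members passed, beside 2324 of the 15487 genes. DESeq2 called 3 members, all more negative in HSALR mice, beside 3.6% of all genes (2.28% more negative). The median of the difference (effect in HSALR minus effect in FVB/N mice) was -0.15, and 86 of 87 members were negative. By definition these are the members with a larger genotype value with CTRL counted above, so this is no second observation. With scaling to the family, 50 of the 87 were negative. The difference was -0.38 ± 0.105 for Rpl22l1 (adjusted p = 0.12) and -0.26 ± 0.0773 for Rpl5 (adjusted p = 0.13). The AICAR effects on the members are therefore not shown to differ between the genotypes.

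Pairs of a standard protein and its paralogue differed in which form had more counts per kb. Shares were taken per kb of gene length, and 20 comparisons were made in this family by two-sided exact permutation tests, with p adjusted over the 20 (BH p). Rpl3l made up 96.9% to 97.7% of Rpl3l and Rpl3 in the group means, Rpl36al 90.7% to 94.0% of Rpl36al and Rpl36a, and Rps27l 78.7% to 79.5% of Rps27l and Rps27. Rpl7l1, in contrast, made up 4.77% to 5.72% of Rpl7l1 and Rpl7. Rpl22l1 had 61.0% ± 0.959 (SD, n = 3) of Rpl22l1 and Rpl22 in FVB/N and 58.1% ± 1.17 (SD, n = 5) in HSALR mice with CTRL, and 65.6% ± 1.1 and 56.8% ± 2.8 after AICAR. The genotypes did not overlap under either treatment, and both comparisons had the smallest p that 5 against 3 mice allow (exact permutation p = 0.018, BH p = 0.089). The share of Rpl36al was 91.7% ± 1.14 in FVB/N and 94.0% ± 0.572 in HSALR mice after AICAR (exact permutation p = 0.018, BH p = 0.089). Within HSALR mice it was 92.5% ± 0.959 with CTRL and 94.0% ± 0.572 with AICAR (exact permutation p = 0.016, BH p = 0.089). None of the 20 comparisons was under 0.05 after the adjustment. With 3 against 3 mice the test cannot go below 0.1.

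Of the 7 paralogues left out of the family total, Rpl36al, Rpl3l (0.19 ± 0.0587, adjusted p = 0.025) and Rps27l (0.16 ± 0.0483, adjusted p = 0.022) were higher in HSALR mice with CTRL, where their standard partners had 0.22 ± 0.091 (Rpl36a, adjusted p = 0.083), 0.45 ± 0.129 (Rpl3, adjusted p = 0.017) and 0.23 ± 0.0865 (Rps27, adjusted p = 0.056). Rpl22l1 (0.08 ± 0.0745) and Rpl7l1 (0.06 ± 0.0708), by contrast, were near 0 beside Rpl22 at 0.26 ± 0.0601 (adjusted p = 0.0053) and Rpl7 at 0.18 ± 0.0555 (adjusted p = 0.028). With the length offset Rpl7l1 and Rpl7 were alike near 0, at 0.04 and 0.03, while Rpl22 kept 0.23 (adjusted p = 0.012) beside Rpl22l1 at -0.14. Rps27rt had 0.24 ± 0.0872 (adjusted p = 0.055), almost the value of Rps27. Rps4l, annotated as a transcribed pseudogene, was at 0.427 to 1.304 normalized CPM in CTRL-treated HSALR mice and had -0.15 ± 0.343, beside Rps4x, the X-linked standard form, at 0.30 ± 0.0636 (adjusted p = 0.0024).

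Levels per kb of gene length ran over a 784-fold range, although a ribosome holds nearly all of these proteins in equal number. The highest were Rplp1 at 665, Rpl4 at 504 and Rplp0 at 471 normalized CPM per kb, and the lowest were Rps4l at 0.848, Rpl28 at 1.40 and Rpl34 at 1.98. Rpl28 and Rpl34 encode standard proteins. Many members have copies elsewhere in the genome, and the authors let a read that fits several places equally well count at 1 of them. A median of 34.5% of the 50-base stretches of a member's transcripts also occurred in transcripts of other genes (85 members, GENCODE annotation of GRCm38), from 0% in Rpl3l and Rps19bp1, among others, to 91.1% in Rps27rt. Across these 85 members, rho between the level per kb and the number of other genes that shared a stretch was -0.366, and rho with the percentage of shared stretches was -0.0996. How reads were split between copies is not known here, so the order of the levels is uncertain. Rps27 and Rps27rt, whose start windows are shown above, had 881 and 863 counts on average and cannot be told apart.

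The genotype difference was set beside the shared stretches, without a test. With CTRL, rho between the log2 fold change and the share of common stretches was 0.021 over the 85 members. Of the 28 members with under 25% common stretches, 22 were higher (median 0.26), and of the 23 with 50% or more, 14 were (median 0.24), beside 15.4% of all genes. After AICAR, 9 of the 28 (median 0.12) and 4 of the 23 (median 0.08) were higher, beside 12.2%. Some pseudogene rows outside the rule held as many reads as their parents, as Rpl14-ps1 with a mean of 11171 counts beside 6920 for Rpl14, and Rplp2-ps1 with 9283 beside 5272 for Rplp2. Rpl14-ps1 had 0.36 ± 0.0546 (adjusted p = 0.00023) and Rplp2-ps1 0.41 ± 0.0546 (adjusted p = 6.8e-05) in HSALR mice with CTRL, close to Rpl14 at 0.41 ± 0.0499 and Rplp2 at 0.36 ± 0.068.

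Genes that work with the members were read from lists chosen for their roles. Outside the name rule, Fau (0.305 ± 0.0682), whose product is a small-subunit protein fused to a ubiquitin-like one, and Rack1 (0.26 ± 0.0637), a scaffold of the small subunit, were both higher in HSALR mice with CTRL. Of 14 translation factors with TOP mRNAs, 7 were higher and 0 lower with CTRL (median 0.21), beside 15.4% and 11.5% of all genes, led by Eef1g (0.60 ± 0.0551, adjusted p = 2.2e-06), a subunit of the factor that reloads EF-1A, and Eif3h (0.42 ± 0.063), a subunit of the initiation factor eIF3. After AICAR, 4 were higher and 0 lower, beside 12.2% and 9.64% of all genes. With AICAR in HSALR mice 0 were higher and 4 lower (Eef1d, Eef1g, Eif4b and Btf3), beside 13.7% and 13.0% of all genes. In FVB/N mice 0 were higher and 1 lower with AICAR, beside 8.4% and 4.77% of all genes. This was Eif4b again, with -0.26 ± 0.0792 (adjusted p = 0.045), and -0.19 ± 0.0613 in HSALR mice.

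Of 7 genes that control TOP mRNAs and S6, Rps6kb2, an S6 kinase, was higher in HSALR mice with CTRL (0.29 ± 0.0799, adjusted p = 0.014) and the other 6 were not past the threshold, 1 of 7 beside 15.4% of all genes. Between the genotypes after AICAR, Rps6kb2 was higher (0.42 ± 0.0803, adjusted p = 0.0018) and Larp1 lower (-0.31 ± 0.093, adjusted p = 0.026). That was 1 of 7 each, beside 12.2% and 9.64% of all genes. AICAR in HSALR mice went with higher Mtor (0.45 ± 0.0986, adjusted p = 0.0035), Eif4ebp1, an inhibitor of cap-dependent translation (0.42 ± 0.104, adjusted p = 0.0079), and Eef2k, the kinase that inhibits elongation (0.27 ± 0.0954, adjusted p = 0.046), 3 of 7 beside 13.7% of all genes. In FVB/N mice, where 8.4% of all genes were higher and 4.77% lower, 0 of the 7 passed by edgeR's test, with 0.34 ± 0.127 for Mtor, and 3 of the 7 passed an unadjusted p of 0.05. Of 11 genes for the synthesis of ribosomal RNA by RNA polymerase I, 5 were higher and 0 lower with CTRL, again beside 15.4% and 11.5% of all genes, led by Polr1d (0.53 ± 0.058), a subunit shared with RNA polymerase III, and Polr1e (0.49 ± 0.0847). After AICAR, 2 were higher and 0 lower (12.2% and 9.64% of all genes). With AICAR, 3 were higher and 2 lower in HSALR mice (13.7% and 13.0%), and 3 were higher and 0 lower in FVB/N mice (8.4% and 4.77%).

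Of 25 ribosome assembly factors, 6 were higher and 1 lower in HSALR mice with CTRL (15.4% and 11.5% of all genes), a median of 0.11, among them Nop16 (0.52 ± 0.0687) and Nhp2 (0.48 ± 0.0522), while Dkc1 was lower (-0.20 ± 0.0541). Nhp2 and Dkc1 are partners in the particles that place pseudouridines in rRNA. After AICAR, 2 were higher and 2 lower (12.2% and 9.64% of all genes), a median of -0.01. With AICAR, 4 were higher and 6 lower in HSALR mice, where 13.7% and 13.0% of all genes were, and 4 were higher and 0 lower in FVB/N mice, where 8.4% and 4.77% were. Nhp2, at 13.2 ± 0.497 (SD, n = 3) and 14.5 ± 0.414 (SD, n = 3) in FVB/N with CTRL and AICAR and at 18.5 ± 0.663 (SD, n = 5) and 15.3 ± 0.593 (SD, n = 5) in HSALR mice, was the one gene of these lists with a called difference between the AICAR effects (-0.40 ± 0.0729, adjusted p = 0.028).

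Markers of other cells in the muscle were set beside the family level. Leukocyte markers summed to 113 to 156 normalized CPM in FVB/N and 134 to 180 in HSALR mice with CTRL, with 2 of 7 higher, and to 115 to 137 and 139 to 237 after AICAR, with 0 called. Satellite cell markers had a median sum of 12.1 in FVB/N and 20.4 in HSALR mice with CTRL, and of 10.7 and 16.1 after AICAR, with 2 of 4 higher in each. Endothelial markers summed to 234 to 261 in FVB/N and 155 to 204 in HSALR mice with CTRL, with 4 of 4 lower, and to 241 to 262 and 195 to 213 after AICAR, with 2 lower. Fibroblast markers overlapped between the genotypes with 0 of 5 called, and 3 of 5 were lower with AICAR in HSALR mice. In the same comparison 2 of 4 endothelial markers were higher, and 1 of 7 leukocyte, 1 of 4 satellite cell and 1 of 6 muscle fibre markers were lower, while in FVB/N mice 1 of 4 satellite cell markers was lower with AICAR. Epidermal markers, from skin, summed to at most 0.371 in all AICAR-treated HSALR mice and ranged from 0.612 to 187 in CTRL-treated HSALR mice, with 8 of 8 lower after AICAR, and from 0.243 to 104 in FVB/N mice, with 5 of 8 lower in HSALR than in FVB/N mice after AICAR. Of 4 adipocyte, 3 Schwann cell and 5 erythroid markers, 0 were called in any comparison. The part of these cells in the differences of the members was not tested.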

How the data were processed

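The deposited values were counts per gene and mouse, with a gene length for each gene. According to the methods and labels, the authors mapped single-end reads to mm10 with STAR 2.5.2a, with up to 10 hits allowed and 1 location kept among equal ones. A read was then counted by QuasR for a RefSeq gene if it started in any of its exons. How the length was computed and whether the strand was used is not given in the sources used here. Libraries were poly(A)-selected and stranded. Symbols and positions were taken from RefSeq (GRCm38.p6, the assembly of mm10), which named 24374 of the 24454 rows. In R 4.3.3 with edgeR 4.0.16, genes were kept by filterByExpr over the 4 groups, scaled by TMM and fitted with glmQLFit and glmQLFTest, with 1 mean per group. SEs are the size of the log2 fold change divided by the square root of F. Alternatives were DESeq2 1.42.0, limma 3.58.1 with voom, 4 other scalings, a scaling to the members, a length offset from a lowess curve (span 0.3) per library, other filters, robust dispersion, a fit of 2 groups only, pseudogene counts added to their parents, and leaving out each mouse. The members and lists were chosen with earlier results of these data known. Members named were, in each comparison, the 5 largest called in each direction, called members against the median, the 3 highest and lowest per kb, and members listed by role or as pairs of paralogues. Other genes were named after their values were seen. The mice are separate animals by their labels. Results of some genes are not reported here.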

Additional observations from a re-analysis of the deposited data

Results flagged for a closer look

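In groups of 5 mice, 80 sets of values were searched for a mouse far from the others, of which chance gives about 4, and 3 were found, all in AICAR-treated HSALR mice. Rpl13a was at 300.3 normalized CPM in mouse S463 against 267.9 to 276.1 in the other 4. Rpl21 was at 108.6 in mouse S455 against 99.96 to 102.2. Rps4l was at 1.25 in mouse S455 against 0.526 to 0.719, at a level of few reads.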

How the results depend on the processing

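No paired analysis was possible because the mouse numbers in the labels are unique and no number is shared between groups. With libraries scaled to the family, members called numbered 21 (11 higher, 10 lower) between the genotypes with CTRL (median 0.0169), 13 after AICAR (median -0.0124) and 3 for AICAR in FVB/N mice (median 0.00183), and the median difference between AICAR effects was -0.0243. That scaling sets the family total equal in all libraries, so log2 fold changes with CTRL turned to -0.0481 for Rplp0, -0.0611 for Rplp1, -0.02 for Rps6, -0.0407 for Rpl11, -0.0839 for Rpl3l, -0.0187 for Rpl22, -0.109 for Rps27l and -0.0982 for Rpl7. With the length offset, 37 members were called with CTRL (median 0.13) and 17 after AICAR (median 0.0136), and Rplp1 turned to -0.0145 and Rps27l to -0.0364 with CTRL. For AICAR in HSALR mice, library size alone gave 21 members, 1 higher and 20 lower (median -0.122), where 8.57% of all genes were higher and 19.1% lower. For AICAR in FVB/N mice, 2 members were called, all higher, with upper-quartile scaling (median 0.0505; 6.1% of all genes higher), 3 with library size alone (5.91%), 2 with only those groups fitted (5.11%) and 12 with DESeq2 (11.2%), which called 3 for the difference between AICAR effects (3.6% of all genes). The causes were not tested. Without each mouse in turn, the calls ranged from 52 to 73 between the genotypes with CTRL, from 18 to 33 after AICAR, from 4 to 13 for AICAR in HSALR mice and from 2 to 10 for AICAR in FVB/N mice, and were 0 for the difference. Without mice S449 and S458 together, an alternative chosen after seeing the data, they were 61, 21, 8, 6 and 0, where 26.5%, 18.1%, 25.8%, 8.35% and 0.32% of all genes were called. Of 1350 values of named members past the threshold under the alternatives, 1166 kept direction and threshold, 174 kept the direction only and 10 turned, the 10 given above. Depth limits Rpl28, Rps4l and Rpl38 most, with 51.7 to 81.1 reads per library on average.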
